A study of Mus musculus with 6 samples.

Results

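The protein kinase D family consists of 3 genes in the mouse, Prkd1, Prkd2 and Prkd3, and all 3 were measured, out of 18193 genes named on the array. The series matrix held 11 probe sets whose annotation gives 1 of these symbols alone: 2 for Prkd1, 5 for Prkd2 and 4 for Prkd3. The family was chosen by measured values, because a Prkd1 probe set had the smallest p of the comparison between the 2 groups. Its differences between the groups are therefore given as descriptions, with moderated standard errors and no test.

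The samples were haematopoietic stem cells sorted from the bone marrow of SCL-tTA H2B-GFP mice. In these mice the tTA-S2 transactivator is expressed from the endogenous scl locus and drives a histone H2B and GFP fusion, which doxycycline turns off, so that every division during the chase dilutes the label. The LRC group, for label-retaining cells, comprised 3 samples that still carried GFP after 170 days on doxycycline. The non-LRC group comprised 3 GFP-negative samples taken at the same time. Both groups shared the genotype, the doxycycline and the remaining gate: negative for lineage markers, CD34 and CD48, and positive for Sca1, c-Kit and CD150. The labels call the 3 samples of a condition independent biological replicates; ages and the number of mice in a sample are not given in the sources used here. GFP-negative cells may have lost the label by dividing or may have lacked it from the start, since the scl-driven transactivator need not act in every stem cell, and these cannot be told apart here.

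Protein kinases D are serine/threonine kinases that bind the membrane lipid diacylglycerol through their C1 domains. Protein kinases C, recruited by the same lipid, phosphorylate their activation loop and switch them on. Active kinases D drive the fission of transport carriers from the Golgi and phosphorylate class IIa histone deacetylases, which then leave the nucleus and release MEF2 transcription factors. In mouse lymphocytes Prkd2 is the main family member and acts downstream of antigen receptors.

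The start region of Prkd1 is shown because the probe set with the largest difference of the family is annotated to this gene, which lies on the minus strand of chromosome 12. The 250 bases before an annotated start, chr12:50649250-50649499 in RefSeq's GRCm38.p6, are printed 5′ to 3′ with each GC box (GGGCGG, searched on both strands) in capitals. The last of the capital runs holds 2 matches that overlap by 1 base. This start lies 22 bases inside the outer end of the annotated gene. The last 22 bases printed, which hold that run, are therefore within the gene.
Prkd1: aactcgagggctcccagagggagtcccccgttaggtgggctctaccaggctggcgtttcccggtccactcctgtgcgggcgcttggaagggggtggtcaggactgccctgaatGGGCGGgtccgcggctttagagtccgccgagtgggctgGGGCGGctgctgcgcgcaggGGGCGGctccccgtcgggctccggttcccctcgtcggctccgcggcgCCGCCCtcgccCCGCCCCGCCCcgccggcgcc

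The window held 6 GC boxes, 3 on each strand, 30 CpG dinucleotides and 75.6% G and C. The window before the outermost annotated start of Prkd2 (chr7:16842652-16842901, plus strand) held 2 GC boxes and 18 CpG, and that of Prkd3 (chr17:79020817-79021066, minus strand) held 2 GC boxes and 38 CpG. Of all 32851 windows of this length in the table, 32.7% held at least 1 GC box, and the median window had 6 CpG. None of these 3 windows held TATAAA on either strand, a motif found in 12.4% of all windows. The arrays do not measure these windows, and the matches are a description of the sequence.

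Expression values are on the log2 scale of the deposited table, in which the median probe set of an array lay at 4.33 to 4.39 and the 10th percentile at 2.10 to 2.33. Values under that percentile are called near the floor here, because the arrays carry no detection call. Kit, the c-Kit gene of the gate, averaged 9.07 ± 0.07 in LRC samples against 9.05 ± 0.06 in non-LRC samples (SD, n = 3 each). Cd34, negative in the gate, was at 2.52, 6.97 and 5.10 in LRC samples against 7.43, 6.60 and 5.62 in non-LRC samples, so its transcript was above the array median on 5 of 6 arrays. Cd48, also negative in the gate, averaged 2.60 ± 0.25 in LRC samples against 2.73 ± 0.48 in non-LRC samples. It was under the median of every array. Slamf1, the CD150 gene, averaged 7.61 ± 1.30 in LRC samples against 7.98 ± 0.68 in non-LRC samples, above the median of every array. Hybridization controls reached 11.24 and 11.02 on LRC replicates 1 and 3, against 10.60 on LRC replicate 2 and 10.58 to 10.70 on the non-LRC arrays. The log2 ratio of the 3′ to the 5′ Gapdh control, a sign of RNA integrity and amplification, ran from 3.16 to 4.16 in LRC and from 2.72 to 3.42 in non-LRC (two-sided exact permutation p = 0.6, where 0.1 is the smallest possible). LRC replicate 1 had the highest Gapdh ratio and the lowest correlations with other arrays (Pearson r of 0.901 to 0.919 across probe sets). The same ratio for the actin control ran from -0.61 to -0.04 in LRC and from -0.23 to -0.16 in non-LRC. It was lowest on LRC replicate 3.

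Prkd1, formerly known as protein kinase C mu, is the founding member of the family. Its probe set 1447623_s_at read 1.99, 1.82 and 2.09 in the 3 LRC samples, against 6.28, 5.04 and 6.18 in the 3 non-LRC samples. All LRC values lay near the floor and all non-LRC values above the median of their array, so the groups were far apart and did not overlap. The means were 1.97 ± 0.13 in LRC samples against 5.83 ± 0.69 in non-LRC samples (SD, n = 3 each), a difference of -3.87 (SE 0.36). Since all LRC values lie near the floor, the fold was taken with values under the 10th percentile of their array raised to that percentile. The difference was then -3.61 (SE 0.36), an estimated 12.2-fold lower geometric mean in LRC for this probe set. The raised floor limits the part of the lowest values and does not allow for sampling error. Fewer cells with the transcript and less of it per cell cannot be told apart in these bulk samples.

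**Figure D1:**
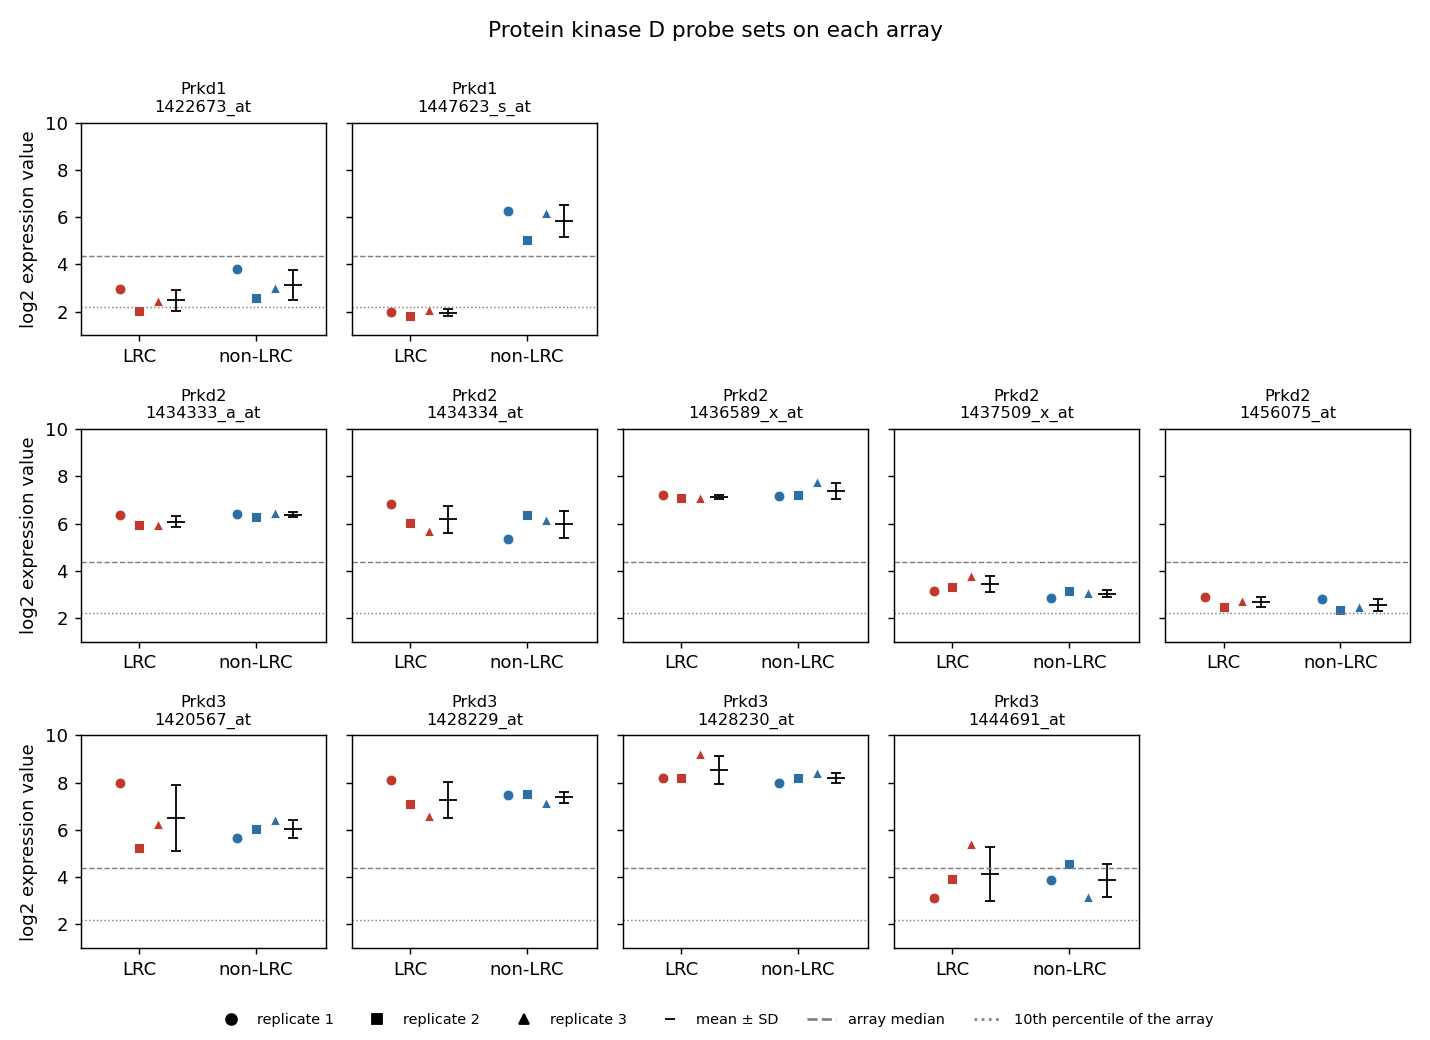
Log2 expression value (vertical axis) of the 11 Prkd1, Prkd2 and Prkd3 probe sets in LRC (red, left) and non-LRC (blue, right), with 1 point per array, the group mean ± SD in black, and the average array median and 10th percentile as dashed and dotted lines. In Prkd1 probe set 1447623_s_at the LRC points sit at 1.82 to 2.09 and the non-LRC points at 5.04 to 6.28, while in the other 10 probe sets the groups overlap.

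This was the largest decrease among the 45037 probe sets tested, whose differences ran from -3.87 to 3.07. It was also the 1 probe set with all LRC values under the 10th percentile and all non-LRC values over the median of their array, which makes 0.00222% of those tested. The reverse pattern was met by 0%. Both the rank and the pattern come from the values that chose the probe set, so they describe it and add no support. Every LRC value was under every non-LRC value in 3.4% of probe sets and over it in 4.88%; of the family's 11 probe sets, 1 was of the first kind and 0 of the second.

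The p that chose Prkd1 was 2.7e-05 before adjustment in limma, and its Benjamini-Hochberg adjusted p was 0.658, which does not pass 0.05. The probe set next in order, 1444959_at, which has no gene symbol in the annotation, had an unadjusted p of 2.92e-05 and an adjusted p of 0.658 in limma. Its means were 4.27 ± 0.12 in LRC samples against 6.25 ± 0.16 in non-LRC samples (SD, n = 3 each). After it came Ncoa7, a nuclear receptor coactivator gene, at 3.14 ± 0.07 in LRC samples against 5.03 ± 0.45 in non-LRC samples. The adjusted threshold was passed by 0% of probe sets in limma, and an unadjusted p under 0.05 by 3.71%.

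**Figure D2:**
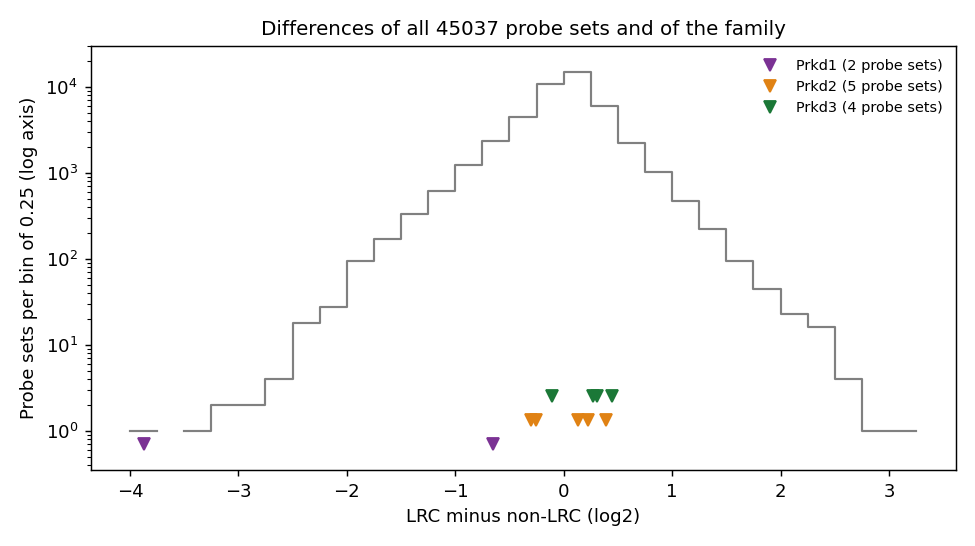
Number of probe sets (vertical axis, log scale) in bins of the LRC minus non-LRC difference (horizontal axis, log2) for all 45037 probe sets in grey, with triangles at the differences of the Prkd1, Prkd2 and Prkd3 probe sets (their height has no meaning). Prkd1 probe set 1447623_s_at, at -3.87, is alone at the left end, and the Prkd2 and Prkd3 probe sets lie between -0.30 and 0.45.

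The other Prkd1 probe set, 1422673_at, read 2.95, 2.05 and 2.46 in LRC samples against 3.83, 2.60 and 3.00 in non-LRC samples. All 6 values were under the median of their array, and the groups overlapped. The means were 2.49 ± 0.45 in LRC samples against 3.14 ± 0.63 in non-LRC samples (SD, n = 3 each), a difference of -0.65 (SE 0.39) with the same sign as that of 1447623_s_at. The differences of the 2 probe sets thus lay 3.21 apart on the log2 scale. Among the 4695 genes with exactly 2 probe sets the median gap was 0.30, and that of Prkd1 was the widest. The suffix _s_at marks a probe set whose probes match more than 1 transcript, which 2088 of the probe sets carried. Which transcripts each Prkd1 probe set reads, and whether all of them come from Prkd1, was not tested. Averaged over both probe sets, Prkd1 stood at 2.23 ± 0.27 in LRC samples against 4.49 ± 0.62 in non-LRC samples (SD, n = 3 each), a difference of -2.26.

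The spread of 1447623_s_at among LRC samples was small, with an SD of 0.13 against a median of 0.35 over all probe sets in that group. In non-LRC its SD was 0.69 against a median of 0.28. Most of the non-LRC spread came from replicate 2, at 5.04, which was still 2.96 above the highest LRC value.

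With 1 array left out at a time, the difference of 1447623_s_at stayed between -4.26 (without non-LRC replicate 2) and -3.65 (without non-LRC replicate 1). With the level of the hybridization controls as a covariate it was -4.02. With LRC replicate 2, the LRC array without bright controls, as the only LRC array, it was -4.01, a value without replication. It was the largest decrease on the array under all 15 alternatives. Some of these, such as the replicate block, leave the difference at -3.87 by construction, and all reuse values that chose the probe set. Its p was the smallest in 7 of the 15. That p ranked 8 with the hybridization control covariate and 22 without LRC replicate 2, its lowest place among the fits with 1 array left out. These figures are descriptions and add no support.

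Prkd2 is the member that works downstream of antigen receptors in mouse lymphocytes. Its 3 brighter probe sets were above the array median on all 6 arrays. Probe set 1436589_x_at read 7.21, 7.08 and 7.07 in LRC samples against 7.15, 7.19 and 7.78 in non-LRC samples, a difference of -0.25 (SE 0.23). Both groups lay close together, apart from non-LRC replicate 3, without which the difference was -0.05.

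Probe set 1434333_a_at read 6.35, 5.95 and 5.94 in LRC samples against 6.40, 6.29 and 6.45 in non-LRC samples, a difference of -0.30 (SE 0.20). LRC replicates 2 and 3 were below every non-LRC array, and LRC replicate 1 lay within the non-LRC range. Probe set 1434334_at read 6.82, 6.03 and 5.70 in LRC samples against 5.33, 6.38 and 6.17 in non-LRC samples, with a difference of 0.23 (SE 0.40). Here the groups interleaved, and the difference was -0.09 without LRC replicate 1 and -0.09 without non-LRC replicate 1.

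The 2 remaining Prkd2 probe sets were under the median of every array. Probe set 1437509_x_at averaged 3.43 ± 0.33 in LRC samples against 3.03 ± 0.16 in non-LRC samples, and 1456075_at averaged 2.69 ± 0.22 in LRC samples against 2.55 ± 0.25 in non-LRC samples (SD, n = 3 each). Over all 5 probe sets Prkd2 averaged 5.10 ± 0.16 in LRC samples against 5.06 ± 0.14 in non-LRC samples, a difference of 0.04 that is smaller than the spread in either group. The 5 probe sets differed in sign, with 2 lower and 3 higher in LRC.

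**Figure D3:**
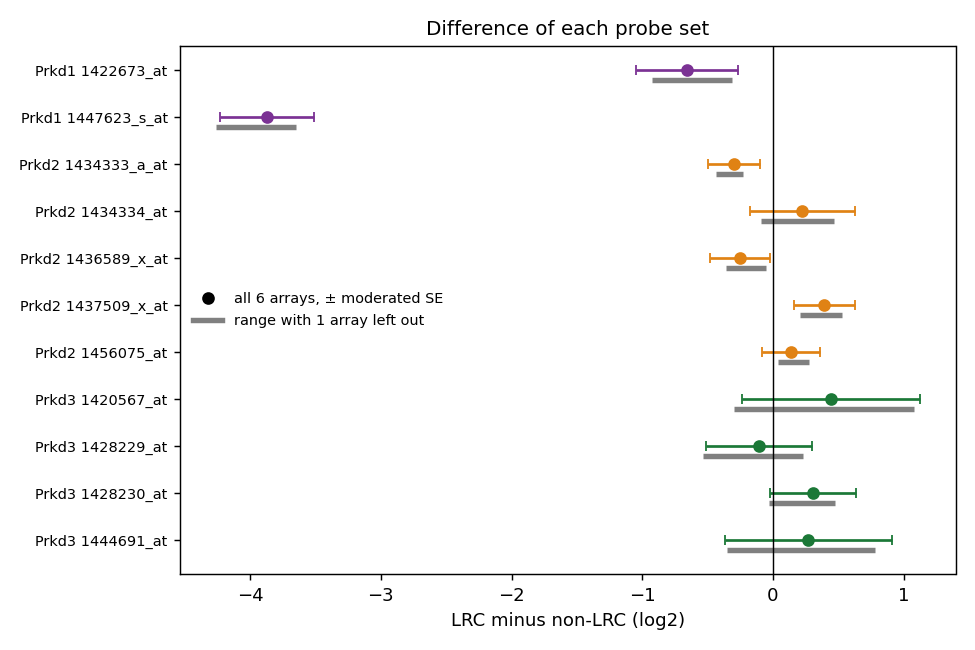
LRC minus non-LRC difference (horizontal axis, log2) of each probe set, with points for all 6 arrays, thin bars for the moderated standard error and grey bars for the range when 1 array is left out. The bars of 1447623_s_at span -4.26 to -3.65, and those of all 4 Prkd3 probe sets cross 0.

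Prkd3, formerly protein kinase C nu, lacks the C-terminal PDZ-binding tail of the other members. Its brightest probe set, 1428230_at, read 8.18, 8.18 and 9.20 in LRC samples against 8.002, 8.21 and 8.42 in non-LRC samples. The means were 8.52 ± 0.59 in LRC samples against 8.21 ± 0.21 in non-LRC samples (SD, n = 3 each), and the difference of 0.31 (SE 0.33) was -0.03 without LRC replicate 3. LRC replicate 3 was the highest of the 6 arrays here, and the other 5 lay together.

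Probe set 1428229_at read 8.12, 7.09 and 6.59 in LRC samples against 7.48, 7.52 and 7.12 in non-LRC samples, a difference of -0.11 (SE 0.40). The LRC arrays lay on both sides of the non-LRC arrays, and without LRC replicate 3 the difference was 0.23. Probe set 1420567_at read 7.98, 5.24 and 6.27 in LRC samples against 5.66, 6.05 and 6.44 in non-LRC samples. Its difference of 0.45 (SE 0.68) rested on LRC replicate 1, without which it was -0.30, and it was -0.77 with the hybridization controls as a covariate. LRC replicate 1 is the array with the brightest hybridization controls; the part of these controls in the Prkd3 values was not tested beyond that fit.

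The 1 dimmer Prkd3 probe set, 1444691_at, read 3.12, 3.91 and 5.39 in LRC samples against 3.86, 4.56 and 3.18 in non-LRC samples, and was above the array median on 2 of 6 arrays. Its difference of 0.27 (SE 0.64) was -0.35 without LRC replicate 3 and -0.08 without non-LRC replicate 3. Averaged over its 4 probe sets, Prkd3 stood at 6.60 ± 0.43 in LRC samples against 6.38 ± 0.18 in non-LRC samples (SD, n = 3 each), a difference of 0.23. Prkd3 thus varied more among the LRC samples than among the non-LRC samples in all 4 probe sets, which share the same arrays. Over all probe sets the median SD was also larger in LRC, at 0.35 against 0.28 in non-LRC. Of the 9 Prkd2 and Prkd3 probe sets, 3 were lower and 6 higher in LRC, with differences of -0.30 to 0.45.

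The genes with values most like those of Prkd1 probe set 1447623_s_at were found as the smallest root mean square difference between mean-centred log2 values over the 6 arrays, which favours genes with a difference of like size. They were Maf (0.63), Zg16 (0.68), Hoxb5os (0.79), Gfpt1 (0.84) and Cdc20 (0.90), all lower in LRC on every array, whereas the other Prkd1 probe set stood at 1.64. Maf, a bZIP transcription factor gene, read 1.93, 3.27 and 1.78 in LRC samples against 5.96, 5.03 and 5.84 in non-LRC samples. It shared with Prkd1 values near the floor in 2 of 3 LRC samples, and 1 of its 5 other probe sets pointed the same way. Zg16, a lectin gene, read 3.91, 3.56 and 3.71 in LRC samples against 6.20, 6.26 and 7.90 in non-LRC samples, and its 2 other probe sets pointed the same way.

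Hoxb5os, an antisense transcript of the Hoxb cluster, averaged 4.09 ± 0.96 in LRC samples against 7.06 ± 0.61 in non-LRC samples (SD, n = 3 each). Gfpt1, the first enzyme of the hexosamine pathway, averaged 3.47 ± 0.68 in LRC samples against 6.60 ± 1.52 in non-LRC samples, and 2 of its 5 other probe sets pointed the same way. Cdc20, which activates the ubiquitin ligase that starts anaphase, averaged 5.24 ± 0.80 in LRC samples against 7.76 ± 0.17 in non-LRC samples, and its 2 other probe sets pointed the same way.

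**Figure D4:**
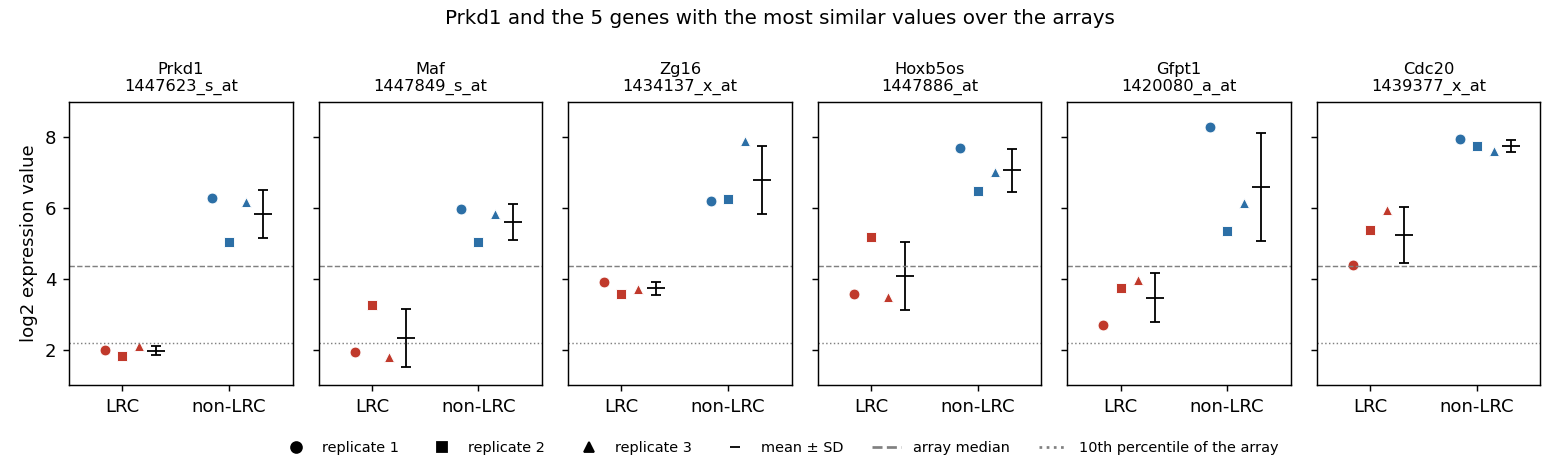
Log2 expression values (vertical axis) of Prkd1 probe set 1447623_s_at and of the 5 genes most like it, in LRC (red, left) and non-LRC (blue, right), with 1 point per array, the mean ± SD in black, and the average array median and 10th percentile as dashed and dotted lines. In Prkd1 all 3 LRC points lie under the 10th percentile line; in Maf 2 do, and in the other 4 genes none does.

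The pathway around the family was described by 7 lists with 92 genes, of which 87 were measured. The remaining genes of these lists were not analysed here. For each gene the probe set with the highest mean over the arrays was read. In limma 0 of the 87 genes passed the adjusted threshold, and at an unadjusted p under 0.05 there was 1 lower (Prkce) and 3 higher in LRC (Plcb2, Gnaq and Src), where 2.02% of all genes were lower and 1.73% higher by that rule. Every LRC value was under every non-LRC value for 2 of the 87, and over it for 5, against 3.62% and 4.71% of all genes. The median difference over the 87 genes was 0.01, and over all genes it was 0.03.

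The protein kinase C isoforms include the calcium-independent isoforms that phosphorylate the activation loop of kinases D. Of 8 measured, 5 had a lower and 3 a higher mean in LRC, with a median difference of -0.04. Prkce, a calcium-independent isoform, read 5.59, 4.81 and 6.71 in LRC samples against 7.76, 6.74 and 7.06 in non-LRC samples, a difference of -1.48 (SE 0.53, limma adjusted p = 0.998). The groups did not overlap, although LRC replicate 3 and non-LRC replicate 2 nearly met, and 2 of its 3 other probe sets pointed the same way. The other calcium-independent isoforms overlapped between the groups. Prkcd differed by 0.79 (SE 0.69), Prkch by 0.14 (SE 0.23) and Prkcq by -0.04 (SE 0.34).

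Phospholipases C make the diacylglycerol that kinases D bind, and diacylglycerol kinases remove it. Of 10 phospholipase genes, 4 had a lower and 6 a higher mean in LRC, with a median difference of 0.14. Plcb2, an isoform activated by G proteins, read 8.03, 7.67 and 7.98 in LRC samples against 7.35, 7.47 and 7.38 in non-LRC samples, a difference of 0.49 (SE 0.19, limma adjusted p = 0.998). All LRC values of Plcb2 were above all non-LRC values, and so were those of Plcb3. The isoforms activated by tyrosine kinases differed by -0.57 (SE 0.38) for Plcg1 and 0.26 (SE 0.21) for Plcg2, with overlapping groups. Of 8 diacylglycerol kinase genes, 3 had a lower and 5 a higher mean, with a median difference of 0.15, which was -0.05 without non-LRC replicate 1. Dgka differed by 0.25 (SE 0.51), Dgkz by 0.54 (SE 0.66) and Dgke by -0.30 (SE 0.24).

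Of 11 upstream G proteins and tyrosine kinases, 3 had a lower and 8 a higher mean in LRC, with a median difference of 0.24. Src, a tyrosine kinase that phosphorylates Prkd1 protein under oxidative stress, read 4.96, 4.65 and 5.45 in LRC samples against 3.14, 3.82 and 3.82 in non-LRC samples. Its difference was 1.42 (SE 0.31, limma adjusted p = 0.998), its groups did not overlap, and its 1 other probe set pointed the same way. Gnaq, a G protein alpha subunit that activates phospholipase C beta, differed by 0.70 (SE 0.26), with no overlap, and 3 of its 6 other probe sets pointed the same way. Rhoa, a small GTPase, lay lower in all LRC samples than in any non-LRC sample, with a difference of -0.41 (SE 0.19), and 1 of its 2 other probe sets pointed the same way.

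**Figure D5:**
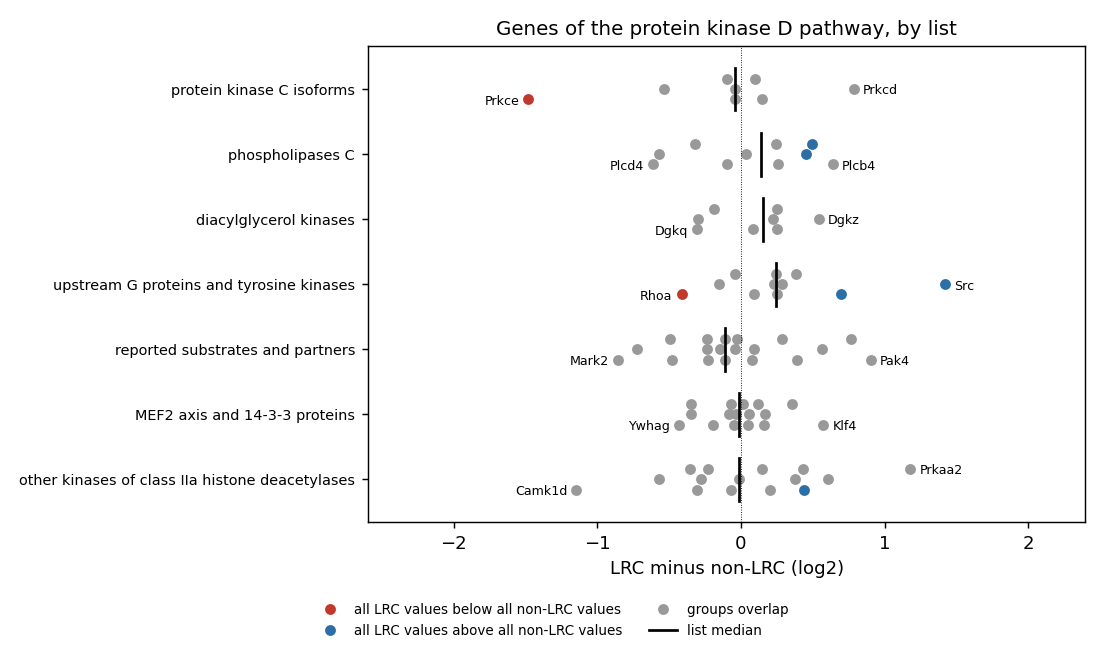
LRC minus non-LRC difference (horizontal axis, log2) of each measured gene of the 7 pathway lists, with 1 point per gene, black bars for list medians, red points where all LRC values lie below and blue points where all lie above all non-LRC values, and the lowest and highest gene of each list named. Prkce, at -1.48, and Src, at 1.42, lie farthest out, and the list medians lie between -0.11 and 0.24.

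Reported substrates and partners of kinases D had 12 of 19 genes with a lower and 7 with a higher mean in LRC, a median difference of -0.11 and 0 genes without overlap. Among the class IIa histone deacetylases, Hdac4 differed by 0.09 (SE 0.24), Hdac5 by -0.23 (SE 0.22) and Hdac7 by -0.48 (SE 0.34). Of the Golgi substrates, Pi4kb, a phosphatidylinositol kinase, differed by -0.03 (SE 0.70) and Cert1, the ceramide transfer protein, by -0.23 (SE 0.43). Mark2, a polarity kinase, had the smallest unadjusted p of the list and differed by -0.85 (SE 0.40), and its 2 other probe sets pointed the same way. None of these genes passed the adjusted threshold.

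The list of MEF2 factors, their target genes and Ywha adaptors, which bind phosphorylated deacetylases, had 8 of 16 genes lower and 8 higher in LRC and a median difference of -0.01. Mef2c differed by -0.07 (SE 0.18) and Mef2d by -0.35 (SE 0.24). Nr4a1 and Klf2, which MEF2 can induce, differed by 0.01 (SE 0.81) and 0.35 (SE 0.33). Ywhah, the adaptor with the smallest unadjusted p of the list, differed by -0.35 (SE 0.20). The list of other kinases of class IIa deacetylases had 8 of 15 genes lower and 7 higher, with a median difference of -0.01. It included Camkk2 (difference -0.57), an activator of kinases in the list rather than a deacetylase kinase. In that list Camk1d, a calmodulin-dependent kinase, differed by -1.15 (SE 0.55) with overlapping groups, and neither of its 2 other probe sets pointed the same way, while all LRC values of Camk4 lay above all non-LRC values.

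Markers of the stem cell gate and of 8 other cell types, 44 genes measured of 50, were read beside these values. The mean of each of the 9 lists overlapped between LRC and non-LRC. Endothelial markers had 5 of 6 genes lower in LRC, with list means of 4.22 to 4.90 in LRC samples against 4.55 to 5.43 in non-LRC samples. Tek, an angiopoietin receptor gene, averaged 5.21 ± 1.81 in LRC samples against 6.71 ± 0.88 in non-LRC samples (SD, n = 3 each), and Emcn, an endothelial sialomucin gene, averaged 4.86 ± 1.26 in LRC samples against 5.82 ± 0.68 in non-LRC samples. Each of the pair was above the median on 5 of 6 arrays. Pecam1 differed by -0.57, Stab2 by -0.41 and Kdr by -0.02. Cdh5, the endothelial cadherin, was the 1 marker of this list with a higher mean in LRC, at 3.04 to 3.52 in LRC samples against 2.78 to 3.17 in non-LRC samples, and was under the median of every array. Its 1 other probe set did not point the same way. The groups overlapped in all 6 endothelial markers. Megakaryocyte markers had 4 of 5 genes lower in LRC, with list means of 5.22 to 5.30 in LRC samples against 5.05 to 6.27 in non-LRC samples. Ppbp, the 1 with a higher mean, was at 2.35 ± 0.17 in LRC against 1.99 ± 0.11 in non-LRC samples. Stromal markers had 5 of 6 genes higher in LRC, T cell markers 4 of 4 and B cell markers 3 of 4. No other probe set of these 5 stromal genes pointed the same way. There were 3 for Lepr, 2 for Pdgfra, and 1 each for Pdgfrb, Col1a1 and Col3a1. Cxcl12, the 1 stromal gene lower in LRC, had 2 of 2 other probe sets of its sign. Among the B cell genes with a higher mean, Ebf1 had 4 of 4 and Pax5 0 of 1. LRC values all exceeded non-LRC values for Ppbp, Col1a1 (stromal) and Hba-a1 (erythroid), as for 4.71% of all genes. Of all 18193 genes, 8209 were lower and 9984 higher in LRC. All 4 T cell markers, 4 of 5 mast cell and basophil markers and 3 of 4 B cell markers were under the median on every array. The part of these markers in the Prkd1 difference was not tested.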

How the data were processed

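RNA from 6 samples of sorted mouse stem cells was isolated with a kit for few cells, amplified in 2 rounds and biotin-labelled, per the labels' protocols, and hybridized to 1 array each. The deposited log2 values, 1 per probe set, were made by RMA, per the submitters' processing notes; its version and background model are not given in the sources used here, and the log base was read from the range of values. Since RMA equalizes the distributions of the arrays, a change in total RNA is not visible. Precision is limited by the number of arrays, which carry no read depth.

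Of 45101 probe sets, 64 controls were left out. Of the 45037 tested, 34945 named 1 gene, 932 several and 9160 none in the platform annotation. LRC minus non-LRC was fitted by limma 3.58.1 under R 4.3.3 (lmFit and eBayes without covariates), with Benjamini-Hochberg adjustment over all probe sets and a threshold of 0.05; the fit was tested on simulated data. Named were all family probe sets, 17 pathway genes set in advance of this fit, the gene of smallest p in each list, genes whose groups did not overlap or whose unadjusted p was under 0.05 (added after their values were seen), and the 5 most alike genes. The members and lists were chosen with earlier results of these data known.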

Additional observations from a re-analysis of the deposited data

How the results depend on the processing

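The 15 alternatives were another quantile normalization, median centring, a filter at the 40th percentile, a floor at the 10th percentile, array weights, eBayes with trend and robust, the hybridization control covariate, the replicate block, each array left out, and, chosen after seeing the data, only replicate 2 kept among the LRC arrays. Of 324 recomputed values, 314 stayed within the replicate spread, or within 1.5 times for counts. That share overstates stability, since some settings, such as the replicate block, leave a difference unchanged by construction. A change of sign within the spread also counted as staying. Prkd3 probe set 1420567_at, for 1, differed by 0.45 with all arrays and by -0.30 without LRC replicate 1. With 1 array left out, the Prkd1 probe set 1447623_s_at differed by -4.26 to -3.65, and 4 to 6 of the other family probe sets were lower in LRC (4 with all arrays); with only replicate 2 kept in LRC, 7 were. The number of probe sets passing the adjusted threshold was 0, and of pathway genes 0, under all 15; at an unadjusted p under 0.05 they were 1673 and 4. List medians with 1 array left out ran from -0.15 to 0.05 for protein kinase C isoforms, 0.02 to 0.16 for phospholipases C, -0.0459 to 0.13 for diacylglycerol kinases, 0.03 to 0.27 for upstream genes, -0.22 to 0.03 for substrates, -0.09 to 0.07 for the MEF2 list and -0.09 to 0.15 for other deacetylase kinases; the cause of the sign changes was not tested. The adjusted p of 1447623_s_at in limma ran from 0.175 (without non-LRC replicate 2) to 1.

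Deviations from the group means correlated at 0.08, 0.14 and 0.08 for same-numbered samples and at -0.09 to -0.01 for others, so each sample correlated best with its own number, a hint from the data only. With the replicate block the difference of 1447623_s_at was -3.87 (SE 0.29), and 0 probe sets passed.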
